A study of Homo sapiens with 8 samples.

Results

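The genes for mitochondrial ribosomal proteins were followed on 8 arrays of T47D cells, an established luminal, estrogen receptor positive line of human breast carcinoma. Members were all probe sets whose only gene symbol in the platform's probe table starts with MRPL or MRPS and a digit, with pseudogenes left out. The rule used names and no measured value. It found 77 probe sets for 73 genes, out of 19460 probe sets that name 1 gene (18417 genes). By name, 50 probe sets (48 genes) belong to the large subunit (MRPL) and 27 probe sets (25 genes) to the small subunit (MRPS). The 3 probe sets of MRPS18B hold identical values on every array, as do the 2 of MRPL20, so the 77 probe sets give 74 distinct rows of values.

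The cells of every group had been infected with lentivirus for a conditional hairpin RNA, against EglN2 in one line and a control hairpin called Scr in the other. The 4 groups of 2 arrays were EglN2 shRNA at day 2, EglN2 shRNA at day 0, Scr at day 2 and Scr at day 0. Day 2 cells had been given doxycycline (1 ug/ml) for 48 h and day 0 cells for 0 h, so each line carried its hairpin construct at both days. How the infected cells were selected is not given in the sources used here. The labels do not say that the 2 arrays of a group came from separate cultures, and the p-values therefore cover the scatter among these arrays alone, which may be technical. Precision is limited by having 2 arrays a group.

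The mitochondrial ribosome makes the few proteins that mitochondrial DNA encodes, all of them parts of the respiratory chain and the ATP synthase. Its RNAs come from mitochondrial DNA, whereas all of its proteins are encoded in the nucleus, made in the cytosol and imported. The small subunit decodes the messenger RNA, and the large subunit joins the amino acids and holds the exit tunnel. Many members have bacterial relatives and others are found only in mitochondria. EglN2 is an oxygen-dependent prolyl hydroxylase of the family that marks the alpha subunits of hypoxia-inducible factor for destruction. NRF-1 and GABP, a factor of the ETS family, are known activators of nuclear genes for mitochondrial proteins.

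Promoters were read from RefSeq (GRCh38.p14) as windows from 250 bases before each gene start to 50 bases from the start on. A window was found for 66 of the 73 member genes, with 82 windows in all, and not for MRPL10, MRPL13, MRPL15, MRPL2, MRPL21, MRPL23 and MRPL35. The ETS type motif was CCGGAAG, searched on both strands, where its reverse complement reads CTTCCGG. It was present in 29 of the 66 genes (43.9%), against 16.8% of the 14237 genes with a window that a probe set names alone and 12.2% of all 27305 genes of the table. It was in 17 of 41 large (41.5%) and 12 of 25 small subunit genes (48%). The NRF-1 type motif (GCGCA and GCGC with any base between them, on either strand) was present in 9 of the 66 genes (13.6%), against 10.1% of the array's genes and 6.98% of the whole table. By subunit it was in 7 of 41 large (17.1%) and 2 of 25 small subunit genes (8%). MRPL30 and MRPS33 were the members that held both. These matches describe letters in a window and do not show that a factor binds there.

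The following stretches are shown because they belong to members that the results below name: MRPS33, which varied most across the groups, and members at the ends of the ranking in at least 1 comparison. Each is read 5′ to 3′ on the strand of its gene, with the match in capitals.
MRPS33 (ETS type, minus strand, chr7:141014935-141014963): agagggcgggcCTTCCGGgacgagggcgc
MRPS33 (NRF-1 type, minus strand, chr7:141015088-141015117): tagccttactGCGCAGGCGCcaggtacacc
MRPS10 (ETS type, minus strand, chr6:42217866-42217894): ccgctgtaaccCCGGAAGcaatcctgaga
MRPL18 (ETS type, plus strand, chr6:159790430-159790458): gggacttgctaCTTCCGGgtcggtggcgt
MRPS23 (ETS type, minus strand, chr17:57850041-57850069): tggagcagccgCTTCCGGttccggtagca
MRPL52 (ETS type, plus strand, chr14:22829871-22829899): ggccacgcctaCTTCCGGctaccccggct
MRPS18A (ETS type, minus strand, chr6:43687805-43687833): ggcgctacgttCCGGAAGcggaaatggac
MRPL34 (NRF-1 type, plus strand, chr19:17305627-17305656): aatgccttgtGCGCACGCGCttgctcagaa

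Over the 29 genes with an ETS type match, the match nearest to a start began at a median of -18 bases (range -222 to 7). Of these genes, 26 had a match within 100 bases. Taking the nearest match of each gene favours short distances. Positions were read in members alone, so whether matches lie closer to the start than in other genes was not tested. In MRPS33 the ETS type match printed above begins on the start base itself, and the NRF-1 type match of the same window begins at -155. MRPS33 had 2 windows, and the other held neither motif. MRPL34 had its NRF-1 type match nearest to a start at -16.

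**Figure D1:**
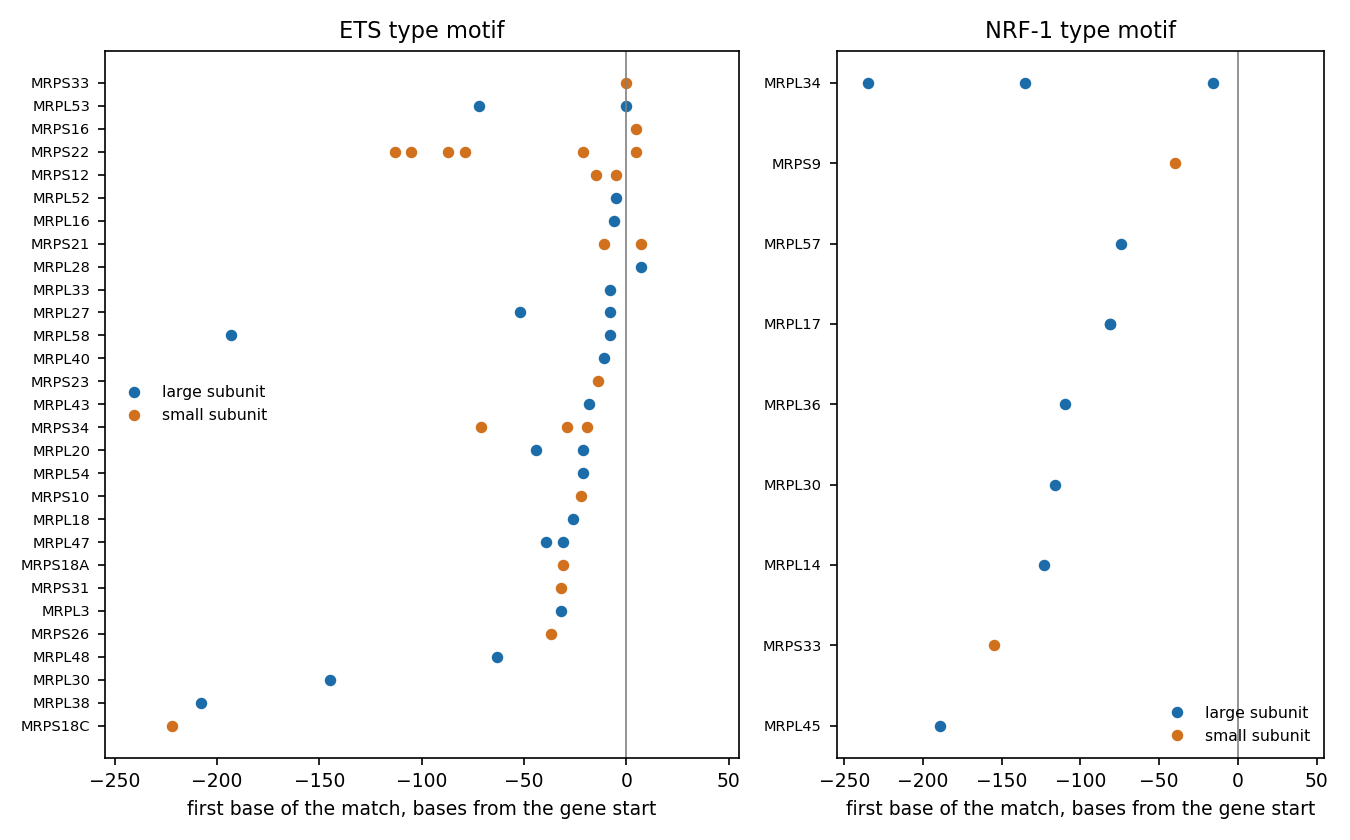
Position of each motif match in the promoters of mitochondrial ribosomal protein genes. The x axis is the distance in bases from the gene start to the first base of the match (negative: before the start), and each row is a gene (large subunit blue, small subunit orange). Most of the 29 genes with an ETS type match have it within 100 bases of the start, and MRPS33 is in both panels.

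Of the 66 genes with a window, 22 (33.3%) had another gene starting within 500 bases in the opposite direction, against 21.1% of the array's genes and 18.3% of the whole table. MRPL46 and MRPS11, of the large and the small subunit, start 320 bases apart and point away from each other. MRPS27, a pentatricopeptide repeat protein, shares such a stretch with PTCD2, another protein of that kind, 133 bases away. MRPS12, which sits in the decoding centre, starts 181 bases from SARS2, the mitochondrial seryl-tRNA synthetase.

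Values are log2 levels made with RMA, on which a difference of 1 is a 2-fold difference. They run from 2.73 to 15.25 over 33297 probe sets, with array medians of 7.81 to 7.86 over the 21214 probe sets that carry a gene name. The 2 arrays of a group correlated with Pearson's r of 0.992 to 0.996 over all of these and 0.988 to 0.997 over the members. All 10 luminal markers, KRT18 and TFF1 among them, were above the array median (7.92 to 14.1), whereas the markers of leukocytes (4.24 to 7.73) and endothelium (5.74 to 6.16) were all below it. Of the fibroblast and the basal or mesenchymal markers, COL1A1 (8.68) and KRT14 (8.15) alone were above it. The members' mean levels ran from 7.25 for MRPS18C to 12.91 for MRPL47, with a median of 10.56. MRPL45 and MRPL3 were next to the highest, and MRPL13 and MRPL54 next to the lowest. These are signals of different probes, so they give no order of RNA amounts between genes. A lower level in these bulk samples cannot be told apart from fewer cells that hold the RNA.

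The hairpin's target was read by a probe set that the table gives to EGLN2 and to the readthrough gene RAB4B-EGLN2. It read 8.26 and 8.29 in EglN2 shRNA cells at day 2, against 8.85 and 9.04 at day 0. Scr cells had 8.81 and 8.90 at day 2 and 8.97 and 9.0 at day 0. Both arrays of the EglN2 shRNA line at day 2 were thus lower than all 6 others, with a change of -0.67 in that line (SE 0.11, adjusted p = 0.134 by limma over all 21214 probe sets) and of -0.13 in the Scr line (SE 0.11, limma adjusted p = 0.602).

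MRPS33, a small subunit protein found only in mitochondria, was the member that varied most. It had 7.81 and 8.15 in EglN2 shRNA cells at day 2, against 8.97 and 8.73 at day 0. Scr cells had 8.73 and 8.53 at day 2 and 8.89 and 8.90 at day 0. Both day 2 arrays of the EglN2 shRNA line lay below all 6 others. How many of all named probe sets have that order was not counted. The groups of each line did not overlap between the days. Of all probe sets, 30.7% had no such overlap in the EglN2 shRNA line and 47.8% in the Scr line. The 4 group means of MRPS33 spanned 0.915, a wider span than that of 99.7% of all named probe sets, while the next widest among members were MRPL42 and MRPS10 at 0.395.

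In the EglN2 shRNA line the change of MRPS33 was -0.87 (SE 0.14, 95% interval -1.19 to -0.55), or 54.7% of the day 0 level. It ranked 19th of 21214 by p but did not pass the limma test over all probe sets (adjusted p = 0.143). In the Scr line the change was -0.27 (SE 0.14, interval -0.58 to 0.05, limma adjusted p = 0.449). The difference between these changes was -0.61 (SE 0.20, interval -1.06 to -0.15, limma adjusted p = 0.676), so a larger change in the EglN2 shRNA line was not established across the table. Between the lines MRPS33 differed by -0.65 at day 2 (limma adjusted p = 0.297) and by -0.05 at day 0 (limma adjusted p = 0.908).

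Averaged over both lines, the day 2 minus day 0 change of MRPS33 was -0.57 (SE 0.10, interval -0.79 to -0.34, limma adjusted p = 0.0847). It averages unequal changes, -0.87 in the EglN2 shRNA line and -0.27 in the Scr line. Over both lines the days were not separate, since EglN2 shRNA day 0 and Scr day 2 each had an array at 8.73. The average passed the threshold with a prior variance that follows intensity (limma adjusted p = 0.0487) and with the replicate number as a block (0.0462). Averaged over both days, EglN2 shRNA minus Scr was -0.35 (SE 0.10, limma adjusted p = 0.469). An exact permutation test cannot go below p = 0.333 with 2 arrays against 2, or 0.0286 with 4 against 4, and none was run. The comparisons share arrays: the EglN2 shRNA arrays of day 2 enter the line's change, the difference of changes and the day 2 comparison, so these are not separate pieces of evidence.

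**Figure D2:**
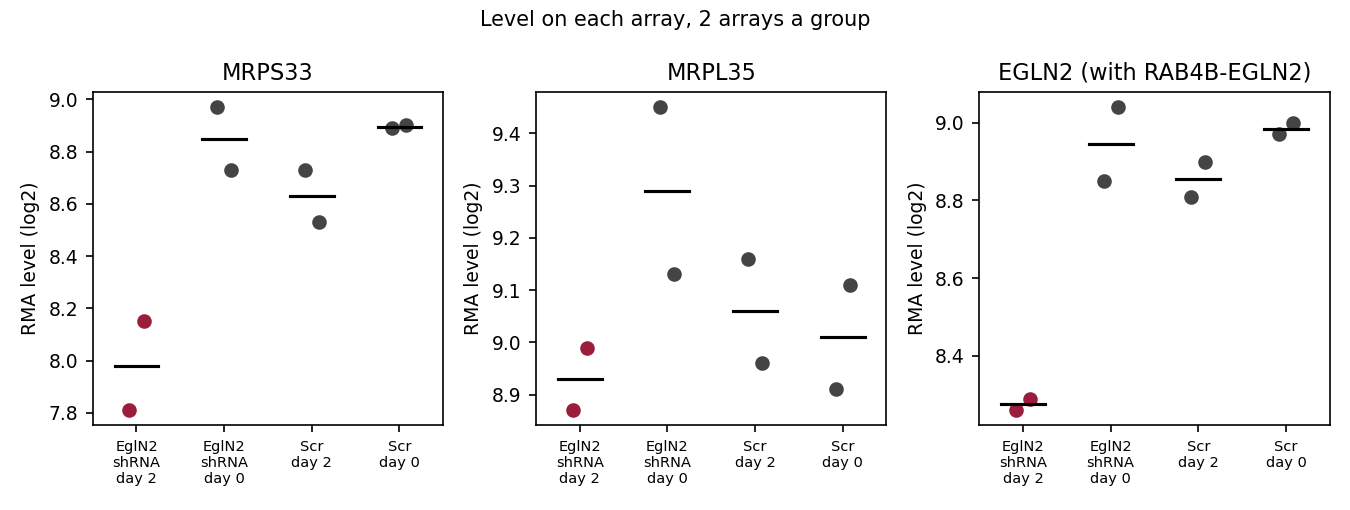
RMA level (log2, y axis) of MRPS33, MRPL35 and the probe set shared by EGLN2 and RAB4B-EGLN2 on each array, by line and day (x axis). Points are arrays, 2 a group, bars are group means, and the y axes differ and do not start at 0. For MRPS33 and EGLN2 both EglN2 shRNA arrays of day 2 (red) lie below all 6 others. For MRPL35 one of these arrays (8.87) is the lowest, and Scr arrays lie at 8.91 and 8.96.

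In the line with the EglN2 hairpin, day 2 was compared with day 0 for all 77 probe sets. None passed the limma test at an adjusted p of 0.05, beside 2 of 21214 probe sets overall (0.00943%). At an unadjusted p under 0.05 there were 2 members (2.6%, MRPS33 and MRPL35, both negative), beside 5.77% of all probe sets. The median change was -0.015 over members and 0.005 over all probe sets, with 28 members above 0 and 47 below. Under quantile normalization the member median was 3e-04, with 39 above 0, so it has no settled direction.

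The intervals were narrow for most members. In 72 of the 77 (93.5%) the 95% interval of the EglN2 shRNA line's change lay within 0.5 of 0 on the log2 scale (1.41-fold either way), beside 79.6% of all probe sets. The groups of 2 did not overlap for 15 members (19.5%), beside 30.7% of all probe sets. MRPS33 was the only member, of either subunit, with its whole interval beyond -0.5.

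MRPL35, a large subunit protein related to a bacterial one, had 8.87 and 8.99 in EglN2 shRNA cells at day 2, against 9.45 and 9.13 at day 0. Its change was -0.36 (SE 0.14, limma adjusted p = 0.768), while Scr cells had 9.16 and 8.96 at day 2 and 8.91 and 9.11 at day 0. The day 2 levels in the EglN2 shRNA line lay close to those of the Scr arrays, and the change was -0.20 without the day 0 array at 9.45. MRPL22, which lines the exit tunnel, had 10.37 and 10.80 in EglN2 shRNA cells at day 2 and 10.81 and 10.76 at day 0. Its change of -0.20 (SE 0.15, limma adjusted p = 0.962) rested on the array at 10.37 and was 0.015 without it.

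In each comparison the members named are those with the largest moderated t (the change over its error), so a member with a larger but noisier value may go unnamed. In this line MRPL15 (-0.17, SE 0.12) and MRPL23, a tunnel exit protein (-0.16, SE 0.10), also ranked low by t. The largest positive values were those of MRPL34 (0.16, SE 0.11), MRPS9 (0.14, SE 0.11), MRPS2 (0.14, SE 0.11), MRPL33 (0.13, SE 0.11) and MRPS27 (0.12, SE 0.11). Their limma adjusted p-values ran from 0.95 to 0.973.

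**Figure D3:**
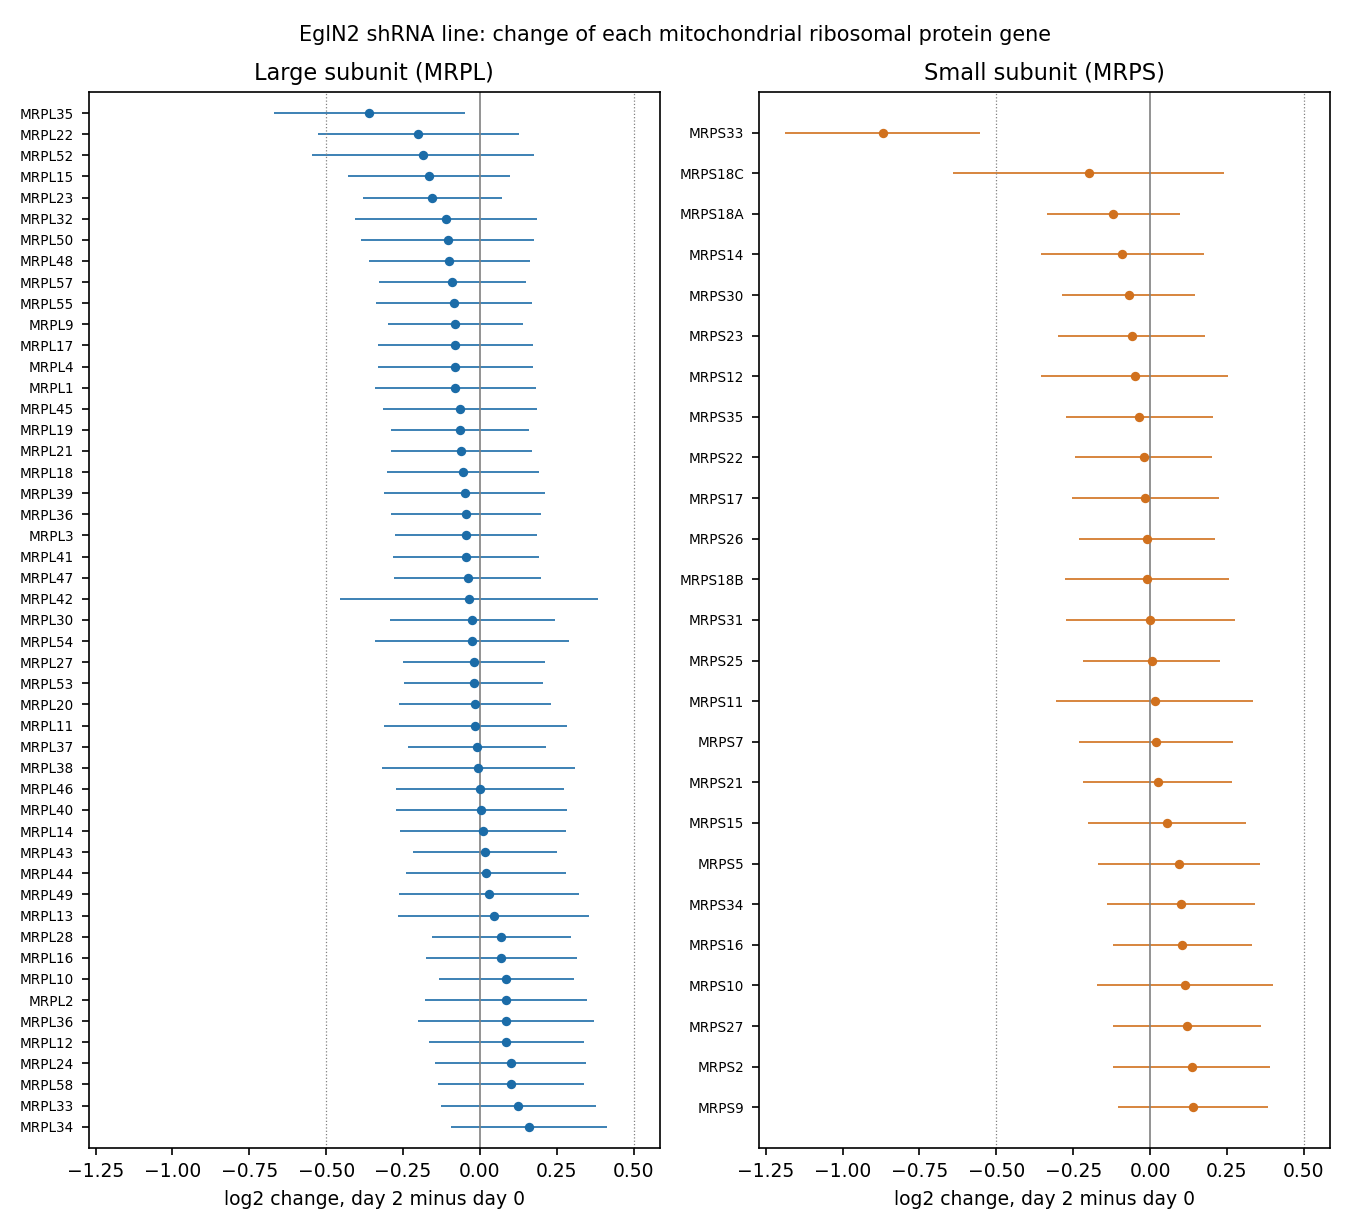
Day 2 minus day 0 change (log2, x axis) in the EglN2 shRNA line for each distinct probe set of the large (left) and small (right) subunit, ordered by change. Points are limma estimates from 2 arrays against 2, bars are unadjusted 95% intervals, and dotted lines mark 0.5 on either side of 0. MRPS33 at -0.87 stands apart, and MRPL35 at -0.36 is the next lowest.

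The same comparison in the Scr line covers doxycycline, time and the induced control hairpin, which cannot be told apart. Again 0 members passed the limma test, beside 0 of 21214 probe sets (0%). The unadjusted p was under 0.05 for 5 members (6.49%), 3 positive and 2 negative, beside 12.9% of all probe sets. The groups of 2 did not overlap for 34 members (44.2%), beside 47.8% of all probe sets. The median change over members was 0.015 (all probe sets -0.01), but it was -0.0463 under quantile normalization and -0.02 without the Scr day 0 array of replicate 1.

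The members with the largest positive values there owed part of them to that array. MRPS10, a small subunit head protein with a bacterial relative, had 11.39 and 11.54 in Scr cells at day 2, against 10.90 and 11.24 at day 0. Its change was 0.40 (SE 0.13, limma adjusted p = 0.31) and 0.23 without the array at 10.90. In the EglN2 shRNA line MRPS10 had 11.44 and 11.45 at day 2 and 11.35 and 11.31 at day 0.

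MRPS14, its neighbour in the small subunit head, had 9.79 and 9.78 in Scr cells at day 2, against 9.29 and 9.55 at day 0. Its change was 0.37 (SE 0.12, limma adjusted p = 0.31) and 0.24 without replicate 1 of day 0. MRPL42 had 11.32 and 11.31 in Scr cells at day 2, against 10.63 and 11.27 at day 0. For MRPL42 the change of 0.37 (SE 0.19, limma adjusted p = 0.437) came almost wholly from that array, since it was 0.05 without it.

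MRPL2, which lies close to the catalytic centre, had 10.52 and 10.69 in Scr cells at day 2, against 10.34 and 10.27 at day 0 (change 0.30, SE 0.12, limma adjusted p = 0.354). At the lower end MRPL23 had 10.52 and 10.52 in Scr cells at day 2, against 10.75 and 10.85 at day 0 (change -0.28, SE 0.10, limma adjusted p = 0.332). Neither pair of groups overlapped. MRPL52 (-0.32, SE 0.16), MRPL41 (-0.25, SE 0.11) and MRPL15 (-0.22, SE 0.12) had limma adjusted p-values of 0.382 to 0.456, and MRPS31 (0.22, SE 0.12) had 0.47.

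**Figure D4:**
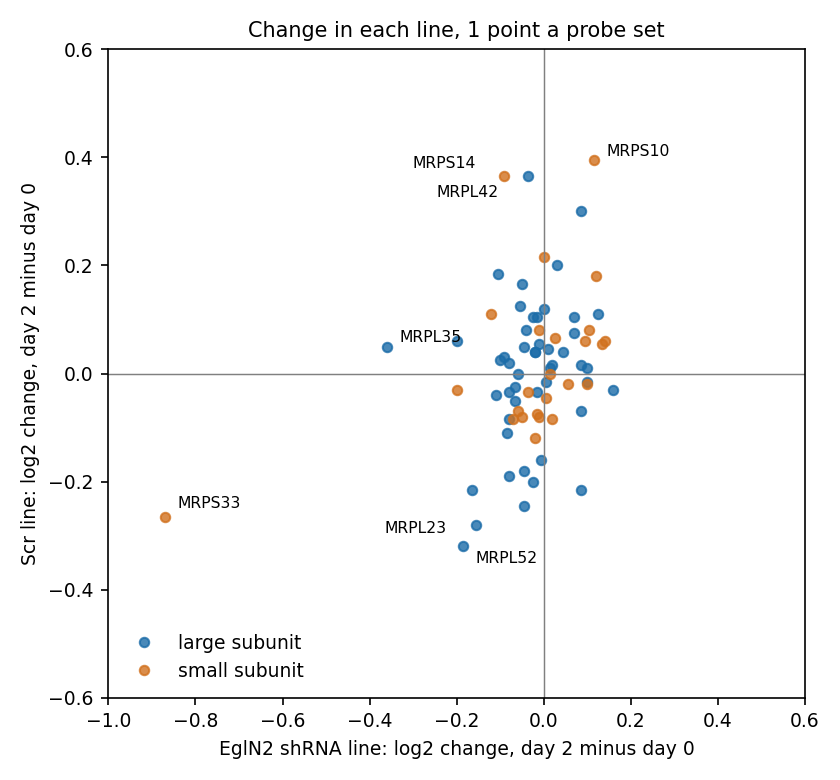
Day 2 minus day 0 change (log2) of each distinct member probe set in the EglN2 shRNA line (x axis) and in the Scr line (y axis), for the large (blue) and small (orange) subunit. MRPS33 is far to the left, at -0.87 in the EglN2 shRNA line and -0.27 in the Scr line. MRPS10 (0.40), MRPS14 and MRPL42 (0.37 each) are at the top, where replicate 1 of Scr day 0 read low.

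Whether the change differed between the lines was tested as an interaction. It called 0 members, beside 0 of 21214 probe sets (0%), and 2 members (2.6%, MRPS33 and MRPS14, both negative) had an unadjusted p under 0.05, beside 7.12% of all probe sets. The median difference was -0.005 over members and 0.005 over all, with 37 members above 0 and 39 below, and it turned to 0.0622 under quantile normalization. MRPS14 had a difference of -0.46 (SE 0.17, limma adjusted p = 0.676), which was -0.33 without replicate 1 of Scr day 0. The next members by negative t were MRPL35 (-0.41, SE 0.20), MRPS18A (-0.23, SE 0.14) and MRPL50 (-0.29, SE 0.18), and MRPL42 had -0.40 with a larger error. The largest positive moderated t belonged to MRPL36 (probe set 8110861, 0.30, SE 0.18, and 0.12 without replicate 1 of Scr day 0), MRPL41 (0.20, SE 0.15), MRPL34 (0.19, SE 0.16), MRPL12, a stalk protein that recruits translation factors (0.16, SE 0.16), and MRPL23 (0.13, SE 0.14). Their limma adjusted p-values lay between 0.701 and 0.844.

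Between the lines after doxycycline, at day 2, 0 members passed the limma test, beside 16 of 21214 probe sets (0.0754%). MRPS33 alone (1.3%) had an unadjusted p under 0.05, beside 5.19% of all. Most members were slightly higher in the EglN2 shRNA line, 56 of 77 above 0 with a median of 0.035 (all probe sets 0.005, 50.3% above 0), a direction that quantile normalization kept (55 of 77, median 0.0284) and that leaving out replicate 1 of EglN2 shRNA day 2 did not (median -0.005). The groups did not overlap for 27 members (35.1%), 23 of them higher in EglN2 shRNA cells, beside 30.4% of all probe sets.

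MRPS25 had 10.06 and 10.15 in EglN2 shRNA cells at day 2, against 9.94 and 9.87 in Scr cells (0.20, SE 0.10). MRPS23 had 11.13 and 11.08 in EglN2 shRNA cells, against 10.88 and 10.91 in Scr cells (0.21, SE 0.11). Both are mitochondria-specific proteins of the small subunit, and their groups did not overlap. MRPL58, a peptidyl-tRNA hydrolase that is part of the large subunit (0.20, SE 0.11), MRPL36 (probe set 8180305, 0.18, SE 0.11) and MRPL24 (0.17, SE 0.11) followed. The lower end after MRPS33 held MRPL22 (-0.26, SE 0.15, and -0.045 without its low array), MRPS14 (-0.21, SE 0.12), MRPS18A (-0.14, SE 0.10) and MRPL35 (-0.13, SE 0.14). All of these had a limma adjusted p of 0.995.

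Before doxycycline, at day 0, 0 members passed the limma test between the lines, beside 0 of 21214 probe sets (0%). The unadjusted p was under 0.05 for 2 members (2.6%, both positive), beside 10.4% of all probe sets, and the groups did not overlap for 26 members (33.8%), beside 45% of all. Here too 56 of 77 were above 0, with a median of 0.07 (all probe sets 0.005), but quantile normalization turned this to 33 of 77 and -0.0209, and the median was 0.03 without replicate 1 of Scr day 0.

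MRPL50 had 9.87 and 9.71 in EglN2 shRNA cells at day 0, against 9.33 and 9.55 in Scr cells (0.35, SE 0.13, limma adjusted p = 0.455). MRPL18, which lies beside the 5S RNA in bacterial ribosomes, had 11.10 and 11.03 in EglN2 shRNA cells, against 10.70 and 10.88 in Scr cells (0.28, SE 0.11, limma adjusted p = 0.46). Both members had Scr arrays below both EglN2 shRNA arrays, with replicate 1 the lowest. MRPL42 (0.40, SE 0.19), MRPS31 (0.26, SE 0.12) and MRPS14 (0.25, SE 0.12) had limma adjusted p-values of 0.489 to 0.49, and without replicate 1 of Scr day 0 the value was 0.075 for MRPL42 and 0.12 for MRPS14. At the lower end MRPL36 (probe set 8110861, -0.17), MRPL12 (-0.15), MRPL23 (-0.13), MRPL34 (-0.13) and MRPL41 (-0.12) had SEs of 0.10 to 0.13 and limma adjusted p-values of 0.606 to 0.667.

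With both lines averaged, day 2 minus day 0 called 0 members, beside 30 of 21214 probe sets (0.141%), and 5 members (6.49%) had an unadjusted p under 0.05, beside 10.7% of all. The median was 0.01 over members, with 42 of 77 above 0, and -0.0203 with 32 above 0 under quantile normalization. Besides MRPS33, MRPL23 (-0.22, SE 0.07, limma adjusted p = 0.346) and MRPS10 (0.26, SE 0.09, limma adjusted p = 0.385) had the smallest p. MRPL23 had all 4 day 2 arrays (10.47 to 10.56) below all 4 day 0 arrays (10.64 to 10.85), and MRPS10 had all 4 day 2 arrays (11.39 to 11.54) above all 4 day 0 arrays (10.90 to 11.35). They were the only 2 members (2.6%) without overlap between the days, beside 5.09% of all probe sets. MRPL2 (0.19), MRPS27 (0.15), MRPS14 (0.14) and MRPL33 (0.12) were also positive, and MRPL52 (-0.25), MRPL15 (-0.19) and MRPL41 (-0.15) negative, with limma adjusted p-values of 0.455 to 0.631.

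With both days averaged, EglN2 shRNA minus Scr called 0 members, beside 7 of 21214 probe sets (0.033%), and 5 members (6.49%) had an unadjusted p under 0.05, beside 8.07% of all. The median was 0.05 over members (all probe sets 0), with 61 of 77 above 0. The median kept its sign but shrank to 0.0103, with 44 of 77 above 0, under quantile normalization. MRPS23 (0.21, SE 0.08), MRPS25 (0.18, SE 0.07), MRPL50 (0.21, SE 0.09), MRPL18 (0.19, SE 0.08) and MRPS5 (0.16, SE 0.08), a small subunit protein near the decoding centre, had limma adjusted p-values of 0.587 to 0.653. MRPS23 had 11.07 to 11.26 on the 4 EglN2 shRNA arrays, against 10.88 to 11.01 on the 4 Scr arrays, and MRPS25 had 10.06 to 10.15 against 9.87 to 9.97. With MRPS5 they were the 3 members (3.9%) without overlap between the lines over both days, beside 3.51% of all probe sets. After MRPS33 the largest negative t belonged to MRPL22 (-0.13), MRPL23 (-0.07), MRPS21 (-0.07) and MRPL12 (-0.07).

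Large and small subunits were compared through their changes and through each array's median of centred levels (level minus the probe set's mean over the 8 arrays), since raw levels of different probe sets cannot be set against each other. In the EglN2 shRNA line the median change was -0.025 over the large and -0.01 over the small subunit, with 16 of 50 and 12 of 27 above 0. In the Scr line it was 0.0175 and 0, with 29 of 50 and 13 of 27 above 0. Between the lines it was 0.0325 and 0.04 at day 2, and 0.0675 and 0.09 at day 0. Under quantile normalization the signs of the EglN2 shRNA line's small subunit median (0.005), of the Scr line's large subunit median (-0.0463) and of both day 0 medians (-0.0214 and -0.0072) turned.

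The centred medians of the large minus the small subunit averaged -0.02 in EglN2 shRNA cells at day 2 and 0.0069 at day 0, against -0.0016 in Scr cells at day 2 and 0.0066 at day 0. The pooled SD between replicates was 0.0227. The 2 arrays of EglN2 shRNA day 2 had -0.0312 and -0.0087, against 0.03 and -0.0163 at day 0, while Scr cells had 0.0169 and -0.02 at day 2 and 0.0013 and 0.0119 at day 0. The groups overlapped between the days in each line and between the lines on each day. Arrays of the same group differed more in the members as a whole. The member median was 0.05 and -0.0175 on the arrays of EglN2 shRNA day 2, 0.0787 and -0.005 at EglN2 shRNA day 0, -0.03 and -0.0262 at Scr day 2, and -0.0775 and -0.0013 at Scr day 0, a pooled SD of 0.0466. In the EglN2 shRNA line 24 of 77 members at day 2 and 14 of 77 at day 0 read lower on replicate 1 than on replicate 2. In Scr cells the counts were 42 at day 2 and 57 at day 0. Over all named probe sets the share lower on replicate 1 was 42.9% at EglN2 shRNA day 2 and 46.2% at EglN2 shRNA day 0. It was 49.6% at Scr day 2 and 46.9% at Scr day 0. Replicate 1 was thus high for members in the EglN2 shRNA groups and low at Scr day 0, and the part this played in the members' positive medians between the lines was tested only by leaving arrays out.

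**Figure D5:**
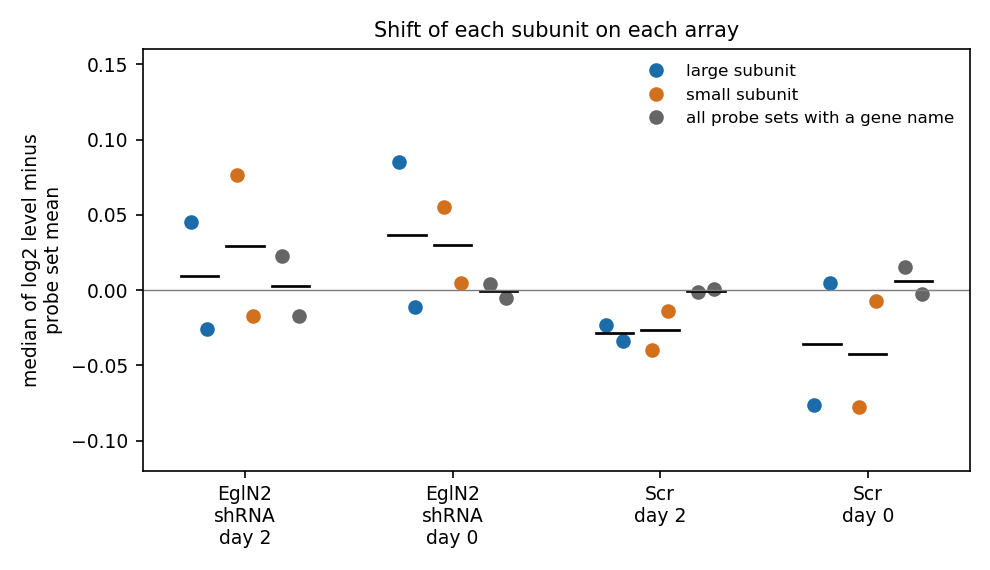
Median of centred log2 levels (y axis) on each array, by line and day (x axis), for the large subunit (blue), the small subunit (orange) and all probe sets with a gene name (grey). Points are arrays, 2 a group, and bars their mean. Both subunits shift alike on most arrays, highest on replicate 1 in the EglN2 shRNA groups and lowest on replicate 1 of Scr day 0, which is under the deposited scaling (quantile normalization turned the sign of the day 0 difference between the lines).

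Members varied less than the table at large. The median SD between replicates was 0.0935 for members and 0.122 for all named probe sets, and the median span of group means was 0.155 and 0.225. The median level was 10.56 for members and 7.84 for all named probe sets. No comparison at matched levels was made, here or for the widths of the intervals above. A span over 0.5 was found for 1 member, MRPS33 (1.3%), and for 1117 of all (5.27%). The narrowest spans were those of MRPS11 (0.025), MRPL40 (0.03) and MRPL53 (0.05). MRPS11 still read 10.81 and 10.35 on the 2 arrays of EglN2 shRNA day 2, so a narrow span of means did not always come with close replicates.

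MRPS18A, MRPS18B and MRPS18C are 3 related copies of a bacterial small subunit protein, of which MRPS18A is built into the large subunit in the mitochondrial ribosome. MRPS18A had 10.10 and 10.09 in EglN2 shRNA cells at day 2 and 10.20 and 10.23 at day 0, against 10.25 and 10.22 in Scr cells at day 2 and 10.09 and 10.16 at day 0. It was lower at day 2 in the EglN2 shRNA line (-0.12, SE 0.10) and higher at day 2 in the Scr line (0.11, SE 0.10), with a difference of -0.23 whose limma adjusted p was 0.72. MRPS18B had -0.01 in the EglN2 shRNA line and 0.08 in the Scr line, and MRPS18C had -0.20 and -0.03. MRPS18C had wide replicates, 6.93 and 7.55 at Scr day 0.

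MRPL36, with a bacterial relative in the large subunit, had 2 probe sets that differed. Probe set 8110861 had 11.54 and 11.64 in EglN2 shRNA cells at day 2 and 11.51 and 11.50 at day 0, against 11.45 and 11.46 in Scr cells at day 2 and 11.85 and 11.49 at day 0. Its value of 11.85 was on the Scr day 0 array that read low for most members, and without that array the day 0 difference of -0.17 became 0.015. Probe set 8180305 had 10.96 and 11.14 in EglN2 shRNA cells at day 2 and 11.16 and 11.03 at day 0, against 10.86 and 10.88 in Scr cells at day 2 and 11.01 and 11.09 at day 0.

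MRPL46 and MRPS11, which share a stretch between their starts, had changes of 0 and 0.015 in the EglN2 shRNA line and of 0.12 and 0 in the Scr line (limma adjusted p of 0.677 or above). MRPS27 had 0.12 in the EglN2 shRNA line and 0.18 in the Scr line, and its neighbour PTCD2 had 0.35 in the Scr line (SE 0.10, limma adjusted p = 0.266). PTCD2 had 9.59 and 9.66 in EglN2 shRNA cells at day 2 and 9.60 and 9.61 at day 0, against 9.64 and 9.60 in Scr cells at day 2 and 9.24 and 9.31 at day 0, so the Scr day 0 arrays alone stood apart. The 29 genes with an ETS type match had a median change of -0.02 in the EglN2 shRNA line and the 37 without had -0.015. In the Scr line the medians were 0.04 and 0. The 9 genes with an NRF-1 type match had -0.025 in the EglN2 shRNA line, against -0.015 for the 57 without, and -0.025 in the Scr line, against 0.015. No test was made of these differences.

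Probe sets close to the rule were kept apart. There were 4 probe sets that hold a symbol of the rule together with others, and 1 that holds the readthrough URGCP-MRPS24 with URGCP, and their values cannot be given to a single gene. The probe set of MRPS6 and SLC5A3 had 9.0 and 9.07 in EglN2 shRNA cells at day 2 and 9.42 and 9.35 at day 0, against 9.04 and 9.21 in Scr cells at day 2 and 9.28 and 9.33 at day 0. It was lower at day 2 than at day 0 on every array of each line (both lines averaged -0.27, SE 0.07, limma adjusted p = 0.268). The probe set of MRPS24 and its readthrough URGCP-MRPS24 had the same order of arrays, with 10.90 to 10.94 at day 2 and 11.02 to 11.07 at day 0 over both lines (-0.13, SE 0.07, limma adjusted p = 0.545). Of all probe sets, 5.09% had no overlap between the days over both lines. The probe set of MRPS28 and TPD52 went the other way (0.18, SE 0.09, limma adjusted p = 0.505), with overlap. Those of MRPL51 with SPTLC1 (-0.10, SE 0.09) and of URGCP with URGCP-MRPS24 (-0.07, SE 0.07) overlapped too. KGD4, earlier called MRPS36 and now known as a part of the oxoglutarate dehydrogenase complex, had 6.79 and 7.65 in EglN2 shRNA cells at day 2 and 7.79 and 7.68 at day 0, against 7.66 and 7.54 in Scr cells at day 2 and 7.11 and 7.70 at day 0. Its replicates spread too widely (change -0.52, SE 0.26, in the EglN2 shRNA line) to tell the groups apart.

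Other genes were followed as 7 lists. They covered mitochondrial protein synthesis and transcription, upstream regulators of nuclear genes for mitochondrial proteins, cytosolic ribosomal proteins, and the respiratory chain with the ATP synthase. None of the lists had a member past the limma threshold in any of the 7 comparisons as fitted without a block. Genes that work with the ribosome under other names (DAP3, GADD45GIP1, CHCHD1, PTCD3 and the membrane insertase OXA1L) had a median change of 0.14 in the EglN2 shRNA line and 0.07 in the Scr line, with 4 of 5 above 0 in each. OXA1L had 11.17 and 11.07 in EglN2 shRNA cells at day 2, against 10.84 and 10.92 at day 0 (0.24, SE 0.10, limma adjusted p = 0.846). DAP3, the GTP-binding protein of the small subunit, had 11.43 and 11.50 in EglN2 shRNA cells at day 2, against 11.17 and 11.34 at day 0 (0.21, SE 0.12, limma adjusted p = 0.926). Neither pair of groups overlapped.

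Assembly factors and enzymes of ribosomal RNA modification (27 probe sets) had medians of -0.015 in the EglN2 shRNA line and 0.035 in the Scr line. DDX28, a helicase of large subunit assembly, had a change of -0.26 (SE 0.14) in the EglN2 shRNA line and of 0.56 (SE 0.14, limma adjusted p = 0.25) in the Scr line, a difference of -0.82 (SE 0.19, limma adjusted p = 0.652). It had 7.53 and 7.65 in EglN2 shRNA cells at day 2 and 7.86 and 7.84 at day 0, against 7.70 and 7.86 in Scr cells at day 2 and 7.04 and 7.41 at day 0, again lowest on replicate 1 of Scr day 0. Translation factors (16 probe sets) had medians of 0.0375 and 0.125, with 11 above 0 and 5 below in each line. The smallest p in the EglN2 shRNA line was that of MTRF1L (probe set 8130383, -0.25, SE 0.10, limma adjusted p = 0.802). In the Scr line it was that of MTRES1 (-0.40, SE 0.12, limma adjusted p = 0.276). For the difference of changes MTRES1 had 0.51 and MTRF1L -0.42 (limma adjusted p = 0.676 for each). TSFM, an elongation factor, had 0.19 in the EglN2 shRNA line and 0.26 in the Scr line.

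Genes that transcribe mitochondrial DNA and process its RNA (17 probe sets) had a median of -0.04 in the EglN2 shRNA line and 0.095 in the Scr line. The difference of changes had a median of -0.175 with 13 of 17 below 0, and at day 0 the median between the lines was 0.19 with 16 of 17 above 0. TFAM, the packaging and transcription factor of mitochondrial DNA, had 11.21 and 11.19 in EglN2 shRNA cells at day 2 and 11.25 and 11.23 at day 0, against 11.38 and 11.27 in Scr cells at day 2 and 10.90 and 11.15 at day 0. Its difference of changes was -0.34 (SE 0.16, limma adjusted p = 0.698), and the lowest value was again on replicate 1 of Scr day 0. FASTKD1 (-0.56, SE 0.20) and PTCD2 (-0.33, SE 0.14) had limma adjusted p-values of 0.676 and 0.696.

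Upstream regulators (11 probe sets) had medians of -0.03 in the EglN2 shRNA line and 0.04 in the Scr line. MYC, a transcription factor that drives growth genes, had 9.54 and 9.07 in EglN2 shRNA cells at day 2 and 9.88 and 9.79 at day 0, against 9.48 and 9.22 in Scr cells at day 2 and 10.15 and 9.69 at day 0. It was lower at day 2 in each line without overlap (-0.53 and -0.57, both lines averaged -0.55, SE 0.13, limma adjusted p = 0.195, and 0.0309 with the replicate number as a block). NRF1 stayed between 7.79 and 8.05 on the 8 arrays. PPARGC1A, a coactivator of mitochondrial genes, had a Scr change of 0.50 (SE 0.18, limma adjusted p = 0.33), with 6.22 on 1 Scr day 0 array and 6.71 to 7.08 on the 7 others.

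Cytosolic ribosomal proteins (100 probe sets of 65 genes) had medians of 0.0025 in the EglN2 shRNA line and 0.0225 in the Scr line. Between the lines they had 0.04 at day 2 (76 of 100 above 0) and 0.0525 at day 0 (74 of 100 above 0), beside 0.035 and 0.07 for the mitochondrial ones. Respiratory chain and ATP synthase subunits (81 probe sets, 1 of them for the divergent transcript NDUFV1-DT, taken in by its name), the partners of the proteins that the mitochondrial ribosome makes, had medians of 0.025 in the EglN2 shRNA line and 0 in the Scr line. Between the lines at day 2 their median was 0.10 with 66 of 81 above 0, and NDUFB3 (0.29, SE 0.12) and NDUFA1 (0.36, SE 0.15), both of complex I, had limma adjusted p-values of 0.916 and 0.954. NDUFA1 had means of 10.705 at day 2 and 10.675 at day 0 in EglN2 shRNA cells, against 10.345 and 10.805 in Scr cells. The 81 probe sets cover 74 genes, so some genes count more than once. In the Scr line 7 of the 81 were lower and 2 higher at day 2 with an unadjusted limma p under 0.05. Of all probe sets, 1138 were lower and 1588 higher by that measure (12.9% together). Within the list ATP5MC1 (-0.40), ATP5ME (-0.35) and NDUFA1 (-0.46) had the smallest p in the Scr line (limma adjusted p of 0.266 to 0.319). The medians of these lists are under the deposited scaling and were not recomputed under others.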

How the data were processed

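The authors deposited log2 levels per probe set; the submitters' processing notes name RMA and Affymetrix Expression Console (versions not given in the sources used here). The method, which subtracts background, equalizes arrays and combines probes, compresses differences of dim genes. Values were used as deposited, on the Affymetrix Human Gene 1.0 ST array. The platform's table gave 1 gene to 19460 of 33297 probe sets, several to 1754 and none to 12083; lone symbols were brought up to date through RefSeq gene IDs (19429 matched, 31 not). Groups came from sample titles. The array has no read depth, and signal over background was not analysed here.

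A limma 3.58.1 model of the 4 groups (R 4.3.3) took in all 8 arrays (4 residual and 5.53 prior degrees of freedom), in 7 two-sided comparisons, with Benjamini-Hochberg adjustment over the 21214 probe sets that carry a gene name and a threshold of 0.05. The fitting code was run on simulated data with independent noise and no effect of the replicate number. Such a run does not speak to shared replicate effects in these arrays. Named members were MRPS33, in each comparison the 5 with the largest positive and 5 with the largest negative moderated t, those with extreme means or spans, the MRPS18 copies and genes with several probe sets; of each list, up to 3 with the smallest p. Members, lists and rules were chosen with earlier results of these data known. Motifs were counted in RefSeq promoters (GRCh38.p14). Alternatives are in the closing section. The planned comparison of protein sequences was not made.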

Additional observations from a re-analysis of the deposited data

How the results depend on the processing

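Alternatives were all probe sets of the table, leaving out the dimmest 25%, only the arrays compared (in the 4 comparisons of 2 groups), a prior variance that follows intensity, each array centred on its median, quantile normalization, the replicate number as a block, 1 probe set for each gene, MRPS30 and MRPS18A counted as large subunit, and each of the 8 arrays left out in turn (the lone array was then assumed to vary like the others). No member passed under any of them except MRPS33 with both lines averaged, which made the count of members past the limma threshold 1 with the intensity-dependent prior and 1 with the replicate block. Its value of -0.5675 had limma adjusted p-values from 0.0462 to 0.403 over all alternatives. The block also made the count of upstream regulators 1 in that comparison (MYC, -0.55, limma adjusted p = 0.0309). Replicate numbers were not shown to pair the arrays, and with 2 numbers only a pairing was not tested. The replicate 1 minus 2 differences correlated positively for every pair of groups, at 0.0981 to 0.271. Quantile normalization moved the member median to -0.0463 in the Scr line, 0.0622 for the difference of changes and -0.0209 at day 0, and the large minus small median to -0.0203 in the Scr line. At day 0 that subunit difference (-0.0225) became 0.0225 with 1 probe set for each gene and 0.0275 with MRPS30 and MRPS18A as large. Leaving out arrays gave member medians of -0.06 to 0.025 in the EglN2 shRNA line, -0.02 to 0.055 in the Scr line, -0.07 to 0.02 for the difference of changes, -0.005 to 0.095 at day 2, 0.02 to 0.115 at day 0, -0.015 to 0.03 with both lines and 0.0325 to 0.075 with both days averaged. The large minus small median ran, in the same order, from -0.0475 to -0.005, -0.0025 to 0.0275, -0.0575 to 0.025, -0.04 to 0.01, -0.0475 to 0.015, -0.0275 to 0.02 and -0.015 to 0.0238. Over the same omissions MRPL22 ran from -0.415 to 0.015 in the EglN2 shRNA line (0.015 without EglN2 shRNA day 2 replicate 1), MRPL36 (probe set 8110861) from -0.345 to 0.015 at day 0 (0.015 without Scr day 0 replicate 1) and MRPS33 from -0.165 to 0.075 at day 0 (0.075 without EglN2 shRNA day 0 replicate 2). Counts over all probe sets depended more on the fit. With both lines averaged they were 30 as reported, 150 with the block, 76 with the intensity-dependent prior, 48 without dim probe sets, 0 over the whole table and 0 to 20 with an array left out. For the EglN2 shRNA line they were 2 as reported, 13 with the block and 0 over the whole table or with only the arrays compared. At day 2 they were 16, 32 with the block, 26 with that prior, 0 over the whole table or with only the arrays compared, and 0 to 15 with an array left out. With both days averaged they were 7, 18 with the block, 14 with that prior, 13 with quantile normalization, 12 without dim probe sets, 4 with centring, 0 over the whole table and 0 to 6 with an array left out. For the Scr line they were 0, 42 with the block and 6 with that prior, and for the difference of changes 0 and 2 with that prior. The causes of these moves were not tested.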
